A study of Homo sapiens with 12 samples.

Results

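The ephrin ligand genes are the 8 human genes that code for the membrane-bound partners of Eph receptors: EFNA1, EFNA2, EFNA3, EFNA4 and EFNA5 of the A class, and EFNB1, EFNB2 and EFNB3 of the B class. They were chosen by symbol among 36315 genes, and the estimated counts and the TPM values (abundance per length and depth) of their 21 listed transcripts were summed per gene in all 12 libraries. RNA came from HMC3, an immortalized human cell line used as a model of microglia, which carried an siRNA for 48 h and received 2 ug/mL of an Fc protein, clustered beforehand for 1 h with goat antibody to human IgG, for 24 h. The 4 groups of 3 libraries were EphB2 + ephrin-B1 siRNA (which got both EphB2-Fc and the siRNA to EFNB1), ephrin-B1 siRNA (that siRNA and Ctrl-Fc), EphB2 (EphB2-Fc and neg ctrl siRNA) and Ctrl (Ctrl-Fc and neg ctrl siRNA). The design thus asked what a soluble EphB2 receptor domain does to cells with normal and with reduced ephrin-B1. All groups share the immortalized line, an siRNA and an Fc protein, and no library is from untouched cells. The study calls its replicates biological and the deposited names give each replicate number its own experiment number, but HMC3 is a single line and no label describes separate cultures, so a p-value here covers only the spread between these samples.

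Ephrins are ligands held on the cell surface, so that signaling needs contact between cells. A-class ephrins are anchored by a GPI lipid, whereas B-class ephrins cross the membrane and have a short cytoplasmic tail. When an Eph receptor clusters a B-class ephrin, the tail is phosphorylated on tyrosines and recruits SH2 adaptors, and its last residues bind PDZ domain proteins, which is called reverse signaling. EphB2-Fc is used to start this process, and the siRNA in this study was directed at EFNB1, 1 of the 3 B-class genes. According to the study, EphB2 can also bind some A-class ephrins.

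The 3 B-class genes lie on different chromosomes of GRCh38: EFNB1 (ENSG00000090776) at chrX:68829021-68842160 on the plus strand, EFNB2 (ENSG00000125266) at chr13:106489745-106535662 on the minus strand and EFNB3 (ENSG00000108947) at chr17:7705202-7711372 on the plus strand. Their last 60 coding bases, taken from the GENCODE 44 transcripts and all within exon 5 of 5, are shown because they code for the PDZ-binding tail that the ligands share and because they show how far the siRNA target resembles its relatives. Capitals mark the 46 of 60 bases (76.67%) that are the same in all 3 genes, and each line runs 5′ to 3′ along the coding strand. The EFNB1 stretch is at chrX:68840595-68840654, the EFNB2 stretch at chr13:106493040-106493099 and the EFNB3 stretch at chr17:7709517-7709576.
EFNB1: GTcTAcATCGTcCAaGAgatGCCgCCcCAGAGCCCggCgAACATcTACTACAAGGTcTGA
EFNB2: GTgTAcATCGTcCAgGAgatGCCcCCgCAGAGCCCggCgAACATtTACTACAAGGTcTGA
EFNB3: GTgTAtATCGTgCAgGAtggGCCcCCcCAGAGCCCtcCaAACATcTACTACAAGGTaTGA

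In pairwise alignments of their coding sequences, 69.2% of aligned bases were the same in EFNB1 and EFNB2, 66.7% in EFNB1 and EFNB3 and 63.3% in EFNB2 and EFNB3. This share covers aligned bases only. Pairs of different class reached like values, from 62.3% (EFNA2 and EFNB2) to 72.9% (EFNA1 and EFNB1). The measure thus does not set the B class apart. The longest run of identical bases was 17 between EFNB1 and EFNB2 and 27 between EFNB1 and EFNB3, both in coding sequence, and no 31-base word, the length kallisto indexes by default, was shared between B-class genes. Reads of 100 bases can thus be told apart between the 3 ligands over most of their length. The transcripts of EFNB2 share 33.68% (EFNB2-202) and 43.93% (EFNB2-201) of their 31-base words with an antisense gene, ENSG00000284966, which was not analysed here. Among the transcripts listed for these libraries, 0 of these words were shared with another GENCODE 44 gene, so reads of them had no such competing target. Reads of that antisense gene, if there are any, cannot be told apart from EFNB2 reads, since no source used here states that the counting used strand.

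The A-class genes EFNA4 (ENSG00000243364, chr1:155063737-155069553), EFNA3 (ENSG00000143590, chr1:155078837-155087538) and EFNA1 (ENSG00000169242, chr1:155127876-155134899) follow each other on the plus strand of chromosome 1, with gaps of 9283 and 40337 bases. EFNA2 (ENSG00000099617) is at chr19:1285873-1301431 on the plus strand and EFNA5 (ENSG00000184349) at chr5:107376894-107670937 on the minus strand. A readthrough gene, EFNA4-EFNA3, spans the first pair and holds 46.05% of the 31-base words of the coding EFNA3 transcript and 12.99% of those of the main EFNA4 transcript. It was given 1.45 to 11.2 estimated counts per library, against 45.7 to 124 for EFNA3, and the split between them is uncertain.

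Library totals lay between 13230689 and 25785591 estimated counts (median 18694234). Of the 14 microglia markers, which are reported here only in part, CD68, CSF1R and TMEM119 had a mean of 1 TPM or more, AIF1 rounded to 0 counts in all 12 libraries, and CX3CR1, TYROBP and C1QA had at most 3, 1 and 1 counts in any library. By the same measure, 8 of 9 mesenchymal and pericyte markers reached a mean of 1 TPM, with COL1A1, a fibrillar collagen, at 908 TPM. Their summed TPM was 1944 to 2348 in EphB2 + ephrin-B1 siRNA, 2491 to 3159 in ephrin-B1 siRNA, 2188 to 2703 in EphB2 and 2719 to 3022 in Ctrl. These TPM ranges give levels and do not compare the groups, for the reason at the end of this paragraph. Several defining microglia transcripts were thus absent or near 0 at this depth, and the part of this makeup in the results was not tested. Differences between groups are given below as log2 fold changes from 1 edgeR fit of 21601 genes with all 12 libraries, with p-values adjusted over those genes and a threshold of 0.05. Levels between libraries are in CPM, which are counts scaled to library size by TMM, since a single 152-base transcript took 10.6% to 40.63% of the TPM of a library.

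Ephrin-B1 siRNA lowered EFNB1, its target, to 39.1% of the Ctrl mean, and it lowered no other ephrin gene past the threshold. EFNB1 stood at 6.56, 6.03 and 6.38 CPM (replicates 1, 2 and 3) in EphB2 + ephrin-B1 siRNA, at 7.10, 6.60 and 8.70 CPM in ephrin-B1 siRNA, at 15.6, 18.8 and 18.4 CPM in EphB2 and at 20.4, 17.5 and 19.3 CPM in Ctrl. All 6 libraries with ephrin-B1 siRNA were thus below all 6 with neg ctrl siRNA, as the labels give them. The fold change was -1.35 ± 0.13 (log2, SE) in ephrin-B1 siRNA vs Ctrl, with an edgeR adjusted p of 0.00124 and the 6th smallest p of 21601 genes. In EphB2 + ephrin-B1 siRNA vs EphB2 it was -1.47 ± 0.13, with an adjusted p of 0.00189 and the smallest p of all genes. EphB2 + ephrin-B1 siRNA vs Ctrl, which shares its Ctrl libraries with the first of these, gave -1.59 ± 0.13 (adjusted p = 0.000548).

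Without a replicate block, EFNB1 was the only 1 of the 8 ephrin genes called in these 3 comparisons, in which 1.81%, 0.616% and 2.01% of all genes tested were called. The deposited names tie libraries of equal replicate number to 1 experiment, and with that number as a block the fit called 13.6%, 9.93% and 15.1% of all genes in them, and EFNA2 passed as well in ephrin-B1 siRNA vs Ctrl and in EphB2 + ephrin-B1 siRNA vs Ctrl (adjusted p = 0.0341 and 0.0131). EFNB1 RNA was still counted in all libraries, with 82 to 181 estimated counts per library with ephrin-B1 siRNA, against 273 to 376 with neg ctrl siRNA. In bulk RNA a partial knockdown in every cell and a complete one in some of the cells cannot be told apart, and neither can fewer cells and less RNA per cell. Leaving out any single library kept EFNB1 past the threshold in both siRNA contrasts (highest adjusted p = 0.0125 and 0.0318). Leaving out replicate 3 in all groups did not, and without the block 0 of 20658 genes then passed in either contrast. The fold changes of EFNB1 were then -1.47 and -1.43 with adjusted p of 0.747 and 0.845, and with the block 0.00151 and 0.00522. Without replicate 2 in all groups the second of these had an adjusted p of 0.142, when 0 of 20683 genes passed in that contrast.

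**Figure D1:**
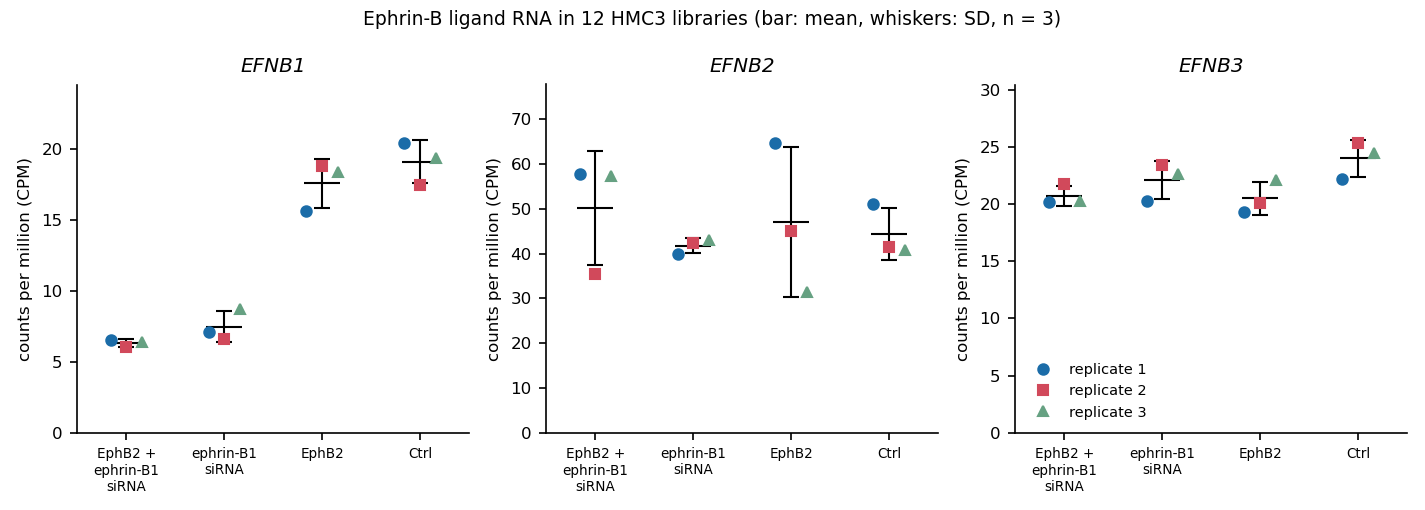
CPM of EFNB1, EFNB2 and EFNB3 in each library, by group, with a symbol for each replicate, the mean as a bar and the SD as whiskers (n = 3). EFNB1 lies at 8.70 CPM or lower in both groups with ephrin-B1 siRNA and at 15.6 CPM or higher in EphB2 and Ctrl, whereas the groups of EFNB2 overlap and those of EFNB3 differ little.

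Neither of the other B-class ligands differed past the threshold in any comparison. EFNB2, which is best known for its role in the growth of blood vessels, stood at 57.8, 35.4 and 57.4 CPM in EphB2 + ephrin-B1 siRNA while ephrin-B1 siRNA libraries had 40.0, 42.3 and 43.0 CPM. It stood at 64.8, 45.1 and 31.4 CPM in EphB2 and at 51.2, 41.4 and 40.8 CPM in Ctrl. The groups overlapped in every comparison, and the widest spread was within EphB2, where replicate 1 held the highest and replicate 3 the lowest level of all 12 libraries. The fold change of ephrin-B1 siRNA vs Ctrl was -0.09, with a 95% interval of -0.61 to 0.44, and that of EphB2 + ephrin-B1 siRNA vs EphB2 was 0.09, with an interval of -0.43 to 0.62. Part of the spread lay in EFNB2-201, a transcript of 3836 bases without a defined coding sequence, which was assigned 261 counts in EphB2 replicate 1 and rounded to 0 in EphB2 replicates 2 and 3.

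EFNB3, the ligand best known as a repellent of growing axons at the midline, had a coefficient of variation of 8.73% over the 12 libraries, which only EFNA4 (8.70%) undercut. It stood at 20.2, 21.8 and 20.3 CPM in EphB2 + ephrin-B1 siRNA, at 20.2, 23.4 and 22.7 CPM in ephrin-B1 siRNA, at 19.3, 20.1 and 22.1 CPM in EphB2 and at 22.2, 25.4 and 24.5 CPM in Ctrl. The siRNA difference was small, at -0.12 vs Ctrl (95% interval -0.32 to 0.08) and 0.02 vs EphB2 (-0.19 to 0.22). EphB2 was lower than Ctrl in 3 of 3 replicate pairs and the groups did not overlap, though only just, since EphB2 replicate 3 had 22.1 CPM and Ctrl replicate 1 had 22.2 CPM. That fold change was -0.23 ± 0.09 and did not pass (adjusted p = 0.611, and 0.0867 with the block). EphB2 + ephrin-B1 siRNA was also below Ctrl in 3 of 3 pairs without overlap, at -0.21 ± 0.09 (adjusted p = 0.346, and 0.0670 with the block), and shares the Ctrl libraries. How many of all genes had groups without overlap, or 3 pairs in 1 direction, was not counted, here or for the genes named below.

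The share of EFNB1 in the ephrin-B pool differed by siRNA as well, as a description of the same measurements. Per length, EFNB1 made up 11.2% ± 0.83 of the summed ephrin-B TPM in EphB2 + ephrin-B1 siRNA libraries and 13.2% ± 1.64 in those with ephrin-B1 siRNA alone, against 26.8% ± 3.47 in EphB2 and 26.9% ± 1.22 in Ctrl (SD, n = 3 each). EFNB2 held 50.7%, 46.5%, 41.0% and 38.0% in the same order of groups, and EFNB3 held 38.1%, 40.3%, 32.2% and 35.0%. In CPM, the 3 genes summed to 77.3 ± 12.2 in EphB2 + ephrin-B1 siRNA, 71.4 ± 3.65 in ephrin-B1 siRNA, 85.2 ± 13.9 in EphB2 and 87.6 ± 5.45 in Ctrl. Most of the ephrin-B RNA of these cells was thus from genes other than the siRNA target, in every group.

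**Figure D2:**
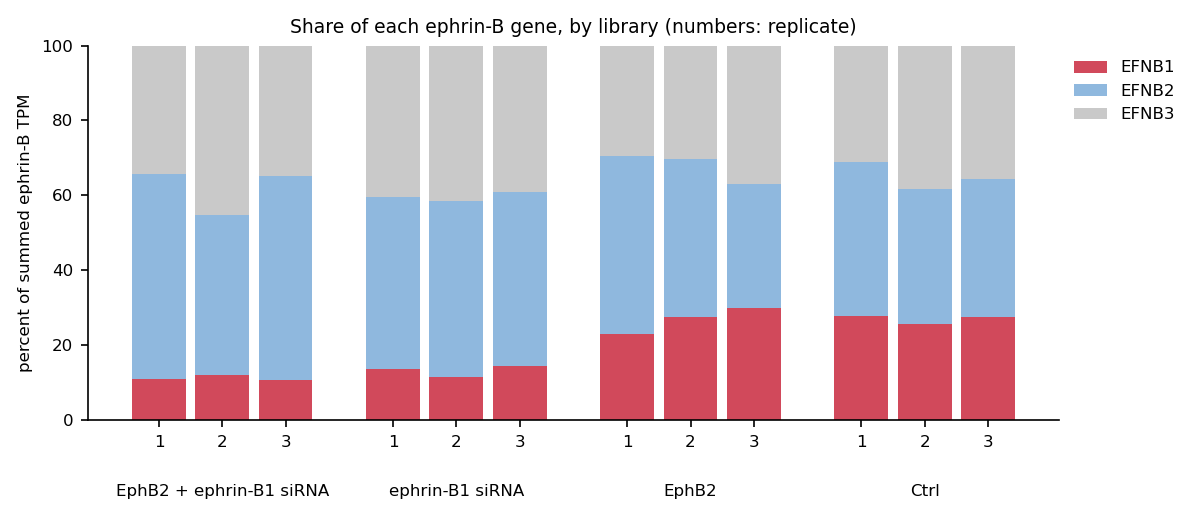
Percent of the ephrin-B TPM, summed over the longest coding transcript of each gene, held by EFNB1, EFNB2 and EFNB3 in each library. Libraries are grouped by treatment and numbered by replicate. The EFNB1 part lies between 10.6% and 14.5% in the 6 libraries with ephrin-B1 siRNA and between 23.0% and 29.9% in the 6 with neg ctrl siRNA.

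With EphB2 treatment none of the 8 ephrin genes passed in edgeR, with 0.037% of all genes called in EphB2 vs Ctrl and 0.116% in EphB2 + ephrin-B1 siRNA compared with ephrin-B1 siRNA. The block gave 0 ephrin genes too, beside 5.34% and 6.93% of all genes. The fold changes lay between -0.35 (EFNA2) and 0.08 (EFNB2) in EphB2 vs Ctrl, where 1 gene, EFNB3, had an unadjusted p under 0.05. They lay between -0.24 (EFNB1) and 0.27 (EFNA3) in the cells with ephrin-B1 siRNA, where none had. By DESeq2 the count was 0 in both comparisons as well. The median over the 8 genes was -0.08 in EphB2 vs Ctrl, beside 0.01 over all genes tested.

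EFNB1 itself, a ligand of EphB2 and the target of the siRNA, was at 17.6 ± 1.73 CPM in EphB2 and 19.1 ± 1.51 CPM in Ctrl (SD, n = 3 each). The difference of -0.12 had a 95% interval of -0.39 to 0.16 and was negative in 2 of 3 pairs. With ephrin-B1 siRNA, EphB2 treatment went with a lower level in 3 of 3 pairs, at 6.32 ± 0.27 CPM, against 7.47 ± 1.10 CPM in cells with ephrin-B1 siRNA alone. These groups did not overlap, though only just, with a highest level of 6.56 CPM against a lowest of 6.60 CPM. The fold change of -0.24 between them did not pass (95% interval -0.53 to 0.05, adjusted p = 0.686). The interaction, which is the difference between these EphB2 effects, was -0.12 (-0.52 to 0.27).

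No ephrin gene passed the interaction test, in which 0% of all genes were called (edgeR, with 498 of 21601 genes at an unadjusted p under 0.05). The interactions of the 8 genes lay between -0.12 (EFNB1) and 0.40 (EFNA3), and the smallest unadjusted p was 0.236. By DESeq2 the count was 0 too.

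**Figure D3:**
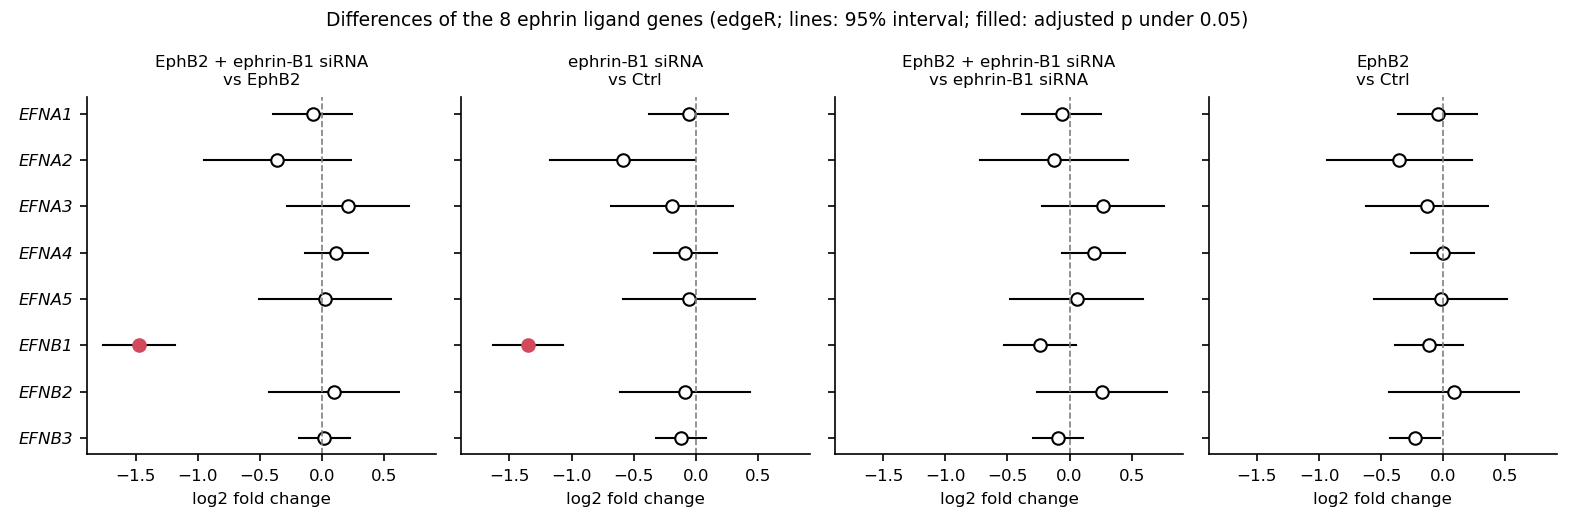
Log2 fold change (x axis) of each ephrin gene (y axis) in 4 comparisons from 1 edgeR fit, with 95% intervals as lines and filled points for an adjusted p under 0.05. The only filled points are those of EFNB1 in the 2 comparisons of ephrin-B1 siRNA with neg ctrl siRNA, at -1.47 and -1.35.

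Among the A-class ligands, EFNA2 was the 1 with the most negative fold changes in the 5 comparisons other than the interaction, although EFNA3 (0.27) and EFNA4 (0.19) were further from 0 than EFNA2 (-0.12) in EphB2 + ephrin-B1 siRNA compared with ephrin-B1 siRNA. That -0.12 turned to 0.08 without ephrin-B1 siRNA replicate 2 and to 0.04 without EphB2 + ephrin-B1 siRNA replicate 1. It stood at 2.24, 3.51 and 2.88 CPM in EphB2 + ephrin-B1 siRNA, at 2.37, 3.97 and 3.03 CPM in ephrin-B1 siRNA, 3.14, 3.60 and 4.25 CPM in EphB2 and 3.52, 6.20 and 4.29 CPM in Ctrl. In all 3 replicate pairs of each of the 5 comparisons the treated value was the lower one, but only EphB2 + ephrin-B1 siRNA and Ctrl did not overlap (highest 3.51 CPM, against a lowest of 3.52 CPM). The 5 comparisons reuse the same 4 groups, so their pairs are not independent. The fold change was -0.59 ± 0.27 in ephrin-B1 siRNA vs Ctrl and -0.71 ± 0.27 in EphB2 + ephrin-B1 siRNA vs Ctrl, and neither passed (adjusted p = 0.410 and 0.255). With the block in edgeR they were -0.58 and -0.69 and both passed (adjusted p = 0.0341 and 0.0131), so that 2 of 8 ephrin genes were called in each. With the same block in DESeq2 neither passed (adjusted p = 0.140 and 0.0651), nor did either in edgeR with the block and without replicate 3 (0.170 and 0.0828). Without Ctrl replicate 2, the highest library, the values without the block were -0.33 and -0.45. At 37 to 120 estimated counts per library, EFNA2 was after EFNA3 the member with the fewest counts in Ctrl, and both comparisons share the Ctrl libraries.

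EFNA5, a ligand best known from the wiring of visual and other sensory maps, had no group difference past the threshold, with fold changes between -0.05 and 0.06 in the 5 comparisons. Its levels followed replicate number. The 3 replicates stood at 31.9, 47.7 and 36.4 CPM in EphB2 + ephrin-B1 siRNA, at 28.1, 47.3 and 36.1 CPM in ephrin-B1 siRNA, 27.5, 44.9 and 41.6 CPM in EphB2 and 30.1, 48.1 and 37.3 CPM in Ctrl. Replicate 1 was thus below replicate 2 in 4 of 4 groups, by a median log2 ratio of -0.69, and replicate 3 lay between them in 4 of 4. EFNA2 had a like pattern, with a median log2 ratio of -0.70, whereas EFNB2 had 0.41, higher in replicate 1 in 3 of 4 groups. The 95% interval of EFNA5 in ephrin-B1 siRNA vs Ctrl was -0.59 to 0.48 without the block and -0.21 to 0.10 with it.

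EFNA1, first found as a gene induced by TNF in endothelial cells, varied between 7.37 and 9.82 CPM over all 12 libraries, and its fold changes lay between -0.12 and -0.05. EFNA4 stood at 14.8, 12.4 and 13.4 CPM in EphB2 + ephrin-B1 siRNA, at 12.2, 11.0 and 12.3 CPM in ephrin-B1 siRNA, 12.6, 12.8 and 12.3 CPM in EphB2 and 14.4, 11.5 and 11.9 CPM in Ctrl. In EphB2 + ephrin-B1 siRNA compared with ephrin-B1 siRNA it was higher in 3 of 3 pairs with no overlap, but the fold change of 0.19 ± 0.12 did not pass (adjusted p = 0.732). EFNA3 varied between 2.93 and 5.32 CPM, its highest level was in Ctrl replicate 2, and its groups overlapped in each comparison. Of the 35 tests of the 7 ligands other than EFNB1, 4 had an unadjusted p under 0.05 and 0 passed (lowest adjusted p = 0.255). Over all 21601 genes, 1632 to 2880 had such a p in each of the 5 comparisons, so the count of 4 is near the background.

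**Figure D4:**
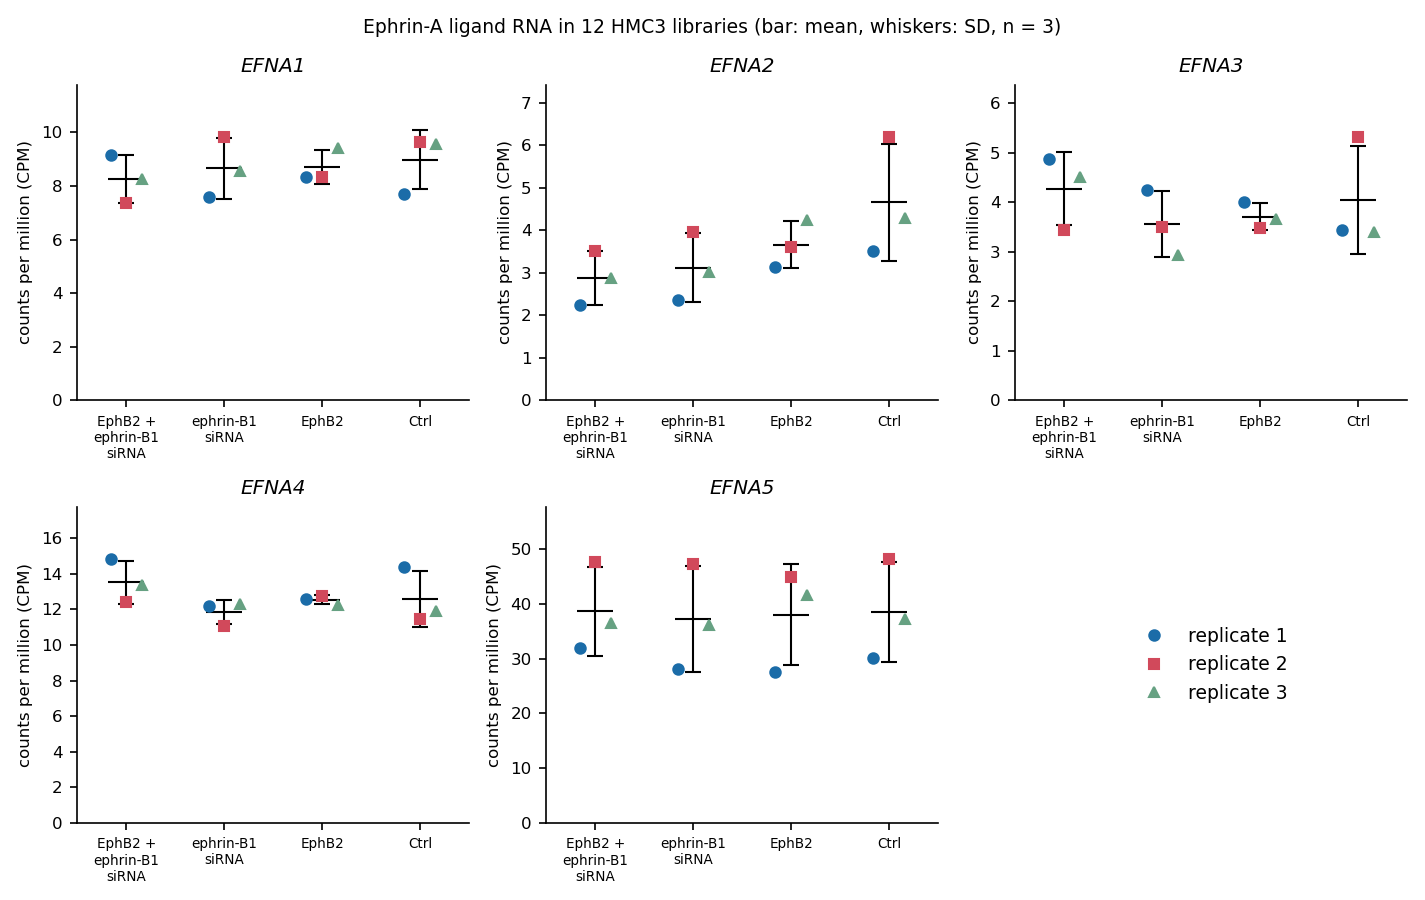
CPM of EFNA1 to EFNA5 in each library, by group, with a symbol for each replicate, the mean as a bar and the SD as whiskers (n = 3). In EFNA5 the same symbol takes the same place in each group, with replicate 1 lowest (27.5 to 31.9 CPM) and replicate 2 highest (44.9 to 48.1 CPM), and in EFNA2 the Ctrl values reach highest.

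All 8 ligands were present in HMC3 cells, with a mean over the 12 libraries between 1.83 TPM (EFNA2) and 18.0 TPM (EFNA5). In Ctrl, the order of summed TPM was EFNA5 (17.7 ± 4.11), EFNA4 (14.7 ± 3.32), EFNB2 (10.9 ± 2.79), EFNB3 (9.07 ± 0.68), EFNA1 (8.14 ± 0.83), EFNB1 (7.05 ± 1.23), EFNA3 (4.81 ± 1.44) and EFNA2 (2.38 ± 0.65; SD, n = 3). The ranges of neighbours overlapped in Ctrl except between EFNA3 and EFNA2. Over all 12 libraries, EFNB3 was above EFNA1 in only 7, and EFNB1 was above EFNA3 in only 5, 6 of the 12 being libraries with ephrin-B1 siRNA.

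This order changed with the transcripts counted, a check added after the data were seen. The longest coding transcript of EFNA5, EFNA5-201 of 5372 bases, held 90.0% of the gene's counts but 42.3% of its TPM, since transcripts of only 606 and 637 bases held 29.1% and 20.2% of the TPM with 4.88% and 3.48% of the counts. EFNA3-201, the coding EFNA3 transcript, held 70.7% of the counts and 46.0% of the TPM. When only the longest coding transcript was counted, the order in Ctrl was EFNA4 (10.6 ± 3.60 TPM), EFNB2 (9.99 ± 2.18), EFNB3 (9.07 ± 0.68), EFNA5 (7.70 ± 1.67), EFNB1 (7.05 ± 1.23), EFNA1 (6.06 ± 0.62), EFNA2 (2.38 ± 0.65) and EFNA3 (1.85 ± 0.45). The ranges of neighbours then overlapped except between EFNA1 and EFNA2. By the Ctrl mean of both measures EFNB2 was the highest of the B class, EFNB1 was the lowest of it, and EFNA2 and EFNA3 were the lowest of all. By the longest coding transcript, however, EFNB2 was above EFNB3 in only 2 of 3 Ctrl libraries and 9 of all 12.

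**Figure D5:**
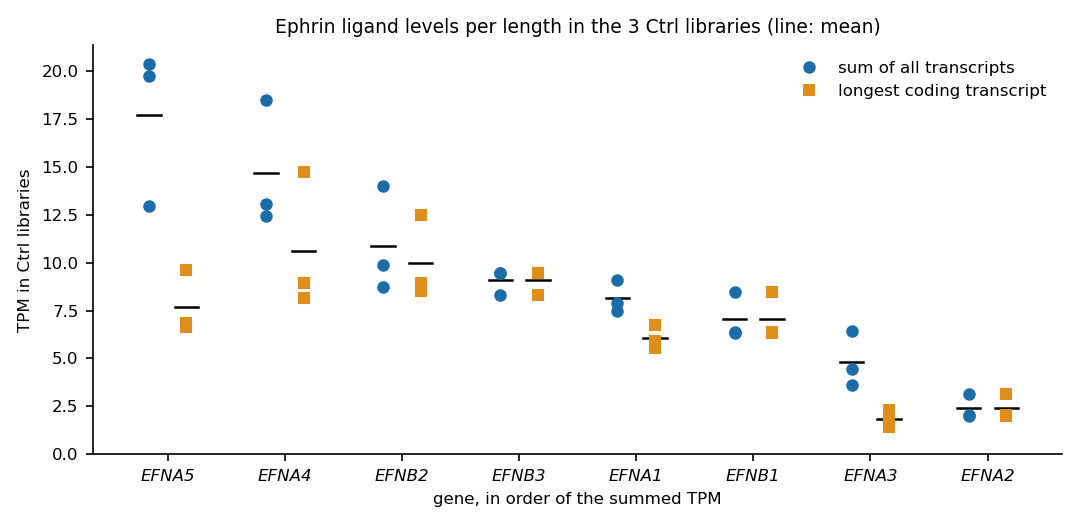
TPM of each ephrin gene in the 3 Ctrl libraries, as the sum of all its transcripts (circles) and for its longest coding transcript alone (squares), with the mean as a line. EFNA5 lies at 17.7 TPM by the sum and at 7.70 TPM by the coding transcript, while the 1-transcript genes EFNB1, EFNB3 and EFNA2 have the same values by both.

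The genes whose log2(CPM + 1) followed that of each ligand most closely over the 12 libraries, among 14271 genes with a mean of 1 CPM or more, were read as a description, since libraries share group and replicate. For EFNB1 they were GRAMD4, ATOSB and FUT8 (Pearson r = 0.97 for each). After the mean of each replicate number was subtracted they were ZNF33A, SCD5 and GRAMD4 (r = 0.99 for each). For EFNB2 they were DSCC1, RNF121 and NAXD (0.88, 0.87 and 0.83), and for EFNB3 they were KLF10, MMP2 and NFATC4 (0.93, 0.93 and 0.92). For EFNA2 they were SUPT3H, LZTR1 and SRPX2 (0.95, 0.94 and 0.93) and for EFNA5 they included NKRF and CNRIP1 (0.98 and 0.97), both with the replicate pattern included. For EFNA4 they were TMEM92, NUDT22 and NBEAL2 (0.96, 0.92 and 0.89), whereas for EFNA1 the closest gene, STPG3, reached 0.86.

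Of the 14 Eph receptors, through which ephrins act on the neighbouring cell, 7 had a mean of 1 TPM or more in a group. EPHA2 was the highest at 105 TPM over the 12 libraries, followed by EPHB4 at 53.7 TPM and EPHB2 at 19.2 TPM. EPHA4 had 3.80 TPM, EPHA1 1.42 TPM, EPHB3 1.21 TPM and EPHA5 1.04 TPM. EPHB4, the classic receptor of EFNB2, and EPHA2, a receptor of A-class ligands, were thus well above every ephrin gene per length. Neither was called in any comparison, with EPHB4 at 163 ± 9.00 CPM in EphB2 + ephrin-B1 siRNA, at 170 ± 4.30 CPM in ephrin-B1 siRNA, 146 ± 9.86 CPM in EphB2 and 162 ± 2.45 CPM in Ctrl.

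The receptor whose extracellular domain was added as Fc protein was the 1 receptor of 14 called, in ephrin-B1 siRNA vs Ctrl, where 1.81% of all genes were called. EPHB2 stood at 54.9, 51.4 and 55.6 CPM in EphB2 + ephrin-B1 siRNA, at 46.4, 47.7 and 52.1 CPM in ephrin-B1 siRNA, at 58.2, 68.5 and 63.4 CPM in EphB2 and at 59.5, 73.4 and 65.9 CPM in Ctrl. All libraries with ephrin-B1 siRNA were therefore below all with neg ctrl siRNA. The fold change was -0.44 ± 0.09 in ephrin-B1 siRNA vs Ctrl, which passed (adjusted p = 0.0307), and -0.30 ± 0.09 in EphB2 + ephrin-B1 siRNA vs Ctrl, which did not (adjusted p = 0.135, and 0.00974 with the block). In EphB2 + ephrin-B1 siRNA vs EphB2 it was -0.23 ± 0.09 and did not pass (adjusted p = 0.372, and 0.0564 with the block). The interaction for EPHB2 was 0.21 (95% interval -0.06 to 0.49). The other 13 receptors were not called in any of the 6 contrasts, and the median fold change of the 14 was -0.11 in ephrin-B1 siRNA vs Ctrl, beside 0.00 over all genes.

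Among 17 adaptors and kinases known to act with ephrin-B tails, 1 was called, in ephrin-B1 siRNA vs Ctrl, beside the 1.81% of all genes. TIAM1, an activator of the GTPase Rac, stood at 84.5, 82.2 and 78.7 CPM in ephrin-B1 siRNA, against 102, 105 and 102 CPM in Ctrl, with a fold change of -0.33 ± 0.05 (adjusted p = 0.0129). In EphB2 + ephrin-B1 siRNA vs EphB2 it was -0.25 ± 0.05 and did not pass (adjusted p = 0.0737, and 0.00181 with the block). The other 16, of which GRB2 (an SH2 adaptor, 109.3 TPM), DVL2 (a Dishevelled protein, 99.3 TPM) and STAT3 (a transcription factor, 85.9 TPM) were highest per length, were not called in any comparison. The median of the 17 genes was 0.08 in ephrin-B1 siRNA vs Ctrl.

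Of 13 genes of proteases and gamma-secretase subunits linked to the cleavage of ephrins or Eph receptors, 2 were called, both lower: 1 in ephrin-B1 siRNA vs Ctrl and 2 in EphB2 + ephrin-B1 siRNA vs Ctrl, where 1.81% and 2.01% of all genes were called. APH1A, a subunit of gamma-secretase, stood at 104, 99.1 and 99.2 CPM in EphB2 + ephrin-B1 siRNA, while ephrin-B1 siRNA libraries had 96.6, 105 and 102 CPM, against 126, 125 and 125 CPM in Ctrl. Its fold changes vs Ctrl were -0.32 ± 0.06 with both agents (adjusted p = 0.0267) and, with the siRNA alone, -0.31 ± 0.06 (adjusted p = 0.0319). MMP2, a matrix gelatinase, stood at 5.89, 8.37 and 6.23 CPM in EphB2 + ephrin-B1 siRNA, against 12.4, 18.0 and 16.3 CPM in Ctrl, with a fold change of -1.19 ± 0.21 (adjusted p = 0.0171). In EphB2 vs Ctrl, MMP2 was lower in 3 of 3 pairs without overlap but did not pass (-0.94 ± 0.21, adjusted p = 0.241, and 0.000253 with the block). ADAM9, ADAM10 and NCSTN were the highest of the 13 per length, at 198, 112 and 78.9 TPM, and were not called. COL1A1, 1 of the 9 mesenchymal markers, was lower in EphB2 + ephrin-B1 siRNA vs Ctrl as well (-0.42 ± 0.08, adjusted p = 0.0174). With the block, 5 of the 9 were lower and 0 higher there, beside 15.1% of all genes called. In EphB2 vs Ctrl 3 were lower and 0 higher (5.34% of all genes). In ephrin-B1 siRNA vs Ctrl 3 were lower and 1 higher (13.6%). For EphB2 in cells with ephrin-B1 siRNA 4 were lower and 0 higher (6.93%). In EphB2 + ephrin-B1 siRNA vs EphB2 2 were lower and 1 higher (9.93%). The part of cell state or makeup in these differences was not tested.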

How the data were processed

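Bulk RNA of 12 HMC3 libraries was quantified with kallisto, whose version is not given in the sources used here, against Ensembl release 109, and the authors deposited an estimated count and a TPM value for each of 188753 transcripts per library. The TPM values were scaled by the authors' tool for transcript length and library depth, and the estimated counts were not scaled. Of these transcripts, 167067 were paired by ID with genes of GENCODE 44 (GRCh38), and they held 95.3% to 96.0% of the counts. These counts were added up for each gene and then rounded to whole numbers. The 21601 genes that reached 10 counts in total were fitted in edgeR 4.0.16 (R 4.3.3) by the quasi-likelihood test with TMM and Benjamini-Hochberg adjustment, with group as the only term. The fit was run on simulated counts in which libraries varied independently, so that run does not cover the replicate pattern described below. Alternatives were DESeq2 1.42.0, limma 3.58.1 on log2(TPM + 1) and log2(TPM + 0.1), other filters and scalings, and libraries left out.

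The deposited names give libraries of equal replicate number the same experiment number. Deviations from the group means correlated at 0.67 to 0.75 between libraries of replicate 1, at 0.703 to 0.733 for replicate 2 and at 0.0296 to 0.183 for replicate 3 (6 pairs each, 14272 genes), so a fit with the number as a block was run as well. It lowered the biological coefficient of variation to 0.0649, against 0.182 without it.

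Members and gene lists were chosen with earlier results of these data known. The text names all ephrin genes, the receptors at 1 TPM or more, the adaptors and proteases that passed or had the 3 highest TPM, and the 3 genes most like each ephrin gene, of which some are not reported here. Neuronal, oligodendrocyte and endothelial marker lists had 0 calls in edgeR without the block. With it, 1 of 6 neuronal markers was higher and 1 of 3 tested oligodendrocyte markers lower in each of the 3 siRNA comparisons. Of all genes, 13.6% were then called in ephrin-B1 siRNA vs Ctrl, 9.93% in EphB2 + ephrin-B1 siRNA vs EphB2 and 15.1% for both agents vs Ctrl. SLC1A3 of the astrocyte list was lower in ephrin-B1 siRNA vs Ctrl without the block (log2 fold change -0.97, edgeR adjusted p = 0.0259). With the block, 2 of 4 tested astrocyte markers were lower and 0 higher there. Intervals are at the 95% level and assume that the counts of a gene vary alike in all groups.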

Additional observations from a re-analysis of the deposited data

How the results depend on the processing

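Without the block, edgeR called 8 genes of all in EphB2 vs Ctrl, 391 in ephrin-B1 siRNA vs Ctrl, 25 for EphB2 in cells with ephrin-B1 siRNA, 133 for that siRNA in cells with EphB2 and 434 for both agents vs Ctrl. With replicate number as a block the counts were 1153, 2931, 1496, 2146 and 3262, and in DESeq2 without it 203, 1007, 270, 658 and 1145. With the block, 2 ephrin genes (EFNB1 and EFNA2) passed for ephrin-B1 siRNA and for both agents vs Ctrl, and the block changed no other ephrin call. Limma on log2(TPM + 1) and on log2(TPM + 0.1) called 0 ephrin genes for the siRNA with or without EphB2. Of all 21601 genes they called 0 and 1 in ephrin-B1 siRNA vs Ctrl, and 0 and 3 in EphB2 + ephrin-B1 siRNA vs EphB2. EFNB1 was then at -0.95 and -1.14 (adjusted p = 0.216 and 0.362) in ephrin-B1 siRNA vs Ctrl, and at -1.17 and -1.46 (0.129 and 0.124) in EphB2 + ephrin-B1 siRNA vs EphB2. Fitting only the groups compared gave 0 ephrin genes in the second of these, where 0 of 20073 genes passed and EFNB1 was at -1.47 (adjusted p = 0.0793). That setting cannot be run for the interaction. Leaving out replicates gave 0 to 1 ephrin genes in each of the 3 siRNA contrasts. EFNB1 stayed between -1.48 and -1.26 in ephrin-B1 siRNA vs Ctrl and between -1.57 and -1.38 in EphB2 + ephrin-B1 siRNA vs EphB2. All 3 contrasts had 0 ephrin genes without replicate 3 in all groups, when 0 of all genes passed. EphB2 + ephrin-B1 siRNA vs EphB2 also had 0 without replicate 2, when 0 of all genes passed in it.

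Over both kinds of level, CPM and the longest coding transcript, 0 of 8 genes kept their rank by summed TPM. The leading transcript held 70.7% of EFNA3 counts and 90.0% of EFNA5 counts, against 46.0% and 42.3% of TPM. With the block, an alternative chosen after seeing the data, the adaptors called were 1 in EphB2 vs Ctrl and 4 each in ephrin-B1 siRNA vs Ctrl, in EphB2 + ephrin-B1 siRNA vs EphB2 and for both agents vs Ctrl. The proteases called were 2, 6, 4 and 6 in the same order and 3 for EphB2 in cells with ephrin-B1 siRNA, and 1 receptor each was called in ephrin-B1 siRNA vs Ctrl and for both agents vs Ctrl. With the block, 5.34% of all genes were called in EphB2 vs Ctrl, 13.6% in ephrin-B1 siRNA vs Ctrl, 9.93% in EphB2 + ephrin-B1 siRNA vs EphB2, 15.1% for both agents vs Ctrl and 6.93% for EphB2 in cells with ephrin-B1 siRNA. Of 1234 fold changes of single ephrin genes under alternatives, 128 changed sign, and none of these was called. Depth limits EFNA2 and EFNA3 most, which had 37 to 124 counts per library. Libraries were left out for the ephrin results only, not for the receptor, adaptor and protease genes.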
